A study of Mus musculus with 38 samples.

Results

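The recovery of the mouse spleen between day 2 and day 5 after a single cyclophosphamide dose was examined by setting the 5 animals killed on day 5 against the 5 killed on day 2. These are 10 of the 19 animals of the series, and they were taken by their titles. Each animal has 2 technical columns, which were averaged. A probe was used if it had a value in at least 3 animals on each day, which left 9022 of 13443 probes (67.1%). All animals were DBA/2 mice. The day 5 and day 2 mice had received 83 mg/kg cyclophosphamide into the peritoneum, and the untreated mice (5 animals) had received none. A group of 4 mice taken on day 1 after the same dose enters the estimate of the spread and the plots. The labels give no age or sex, and the cells are splenocytes that were not sorted. Every value is a log2 ratio of an animal's splenocyte RNA (Cy5) to one pool of marrow RNA (Cy3), so 0 means the level of the pool, and a difference of 1 between days means a 2-fold difference. The pool is common to all groups and cancels when days are compared. Its label says untreated marrow, while its treatment note names cyclophosphamide. The base of the logarithm was not stated and was taken as 2.

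Cyclophosphamide is an alkylating drug that crosslinks DNA and kills or stops dividing cells. The mouse spleen is a lymphoid organ that also makes blood cells throughout life. It can raise its output of red cells when marrow production is disturbed. Red cell precursors divide as they mature, so genes of heme synthesis, red cell membrane proteins and the division machinery are active in the same cells there. The spleen also holds macrophages that clear dead cells, and B and T lymphocytes.

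The number of values per technical column ran between 6892 and 10271 on day 5 and between 5829 and 10407 on day 2. The 2 technical columns of an animal correlated at 0.67 to 0.92 over probes on day 5 and at 0.72 to 0.96 on day 2. In untreated animals they correlated at 0.58 to 0.94, lowest in animal 4 (0.58) and animal 2 (0.65). The values spread less on day 5, with an SD over probes of 0.38 to 0.52 against 0.51 to 0.70 on day 2. The tissue label was checked on B and T cell markers. The B cell markers stood above the marrow pool in 5 of 5 animals on day 5 (mean log2 ratio 0.69 ± 0.18, SD, n = 5) and 5 of 5 on day 2 (1.08 ± 0.16). The T cell markers had means of 0.12 on day 5 and 0.41 on day 2. On day 2 all 3 animals with a value stood above the pool, and the other day 2 animals had no value. On day 5, 3 animals stood above it. Only 3 of the 5 T cell markers on the array had values. The lowest animal with a value had -0.07 on day 5 and 0.19 on day 2. Of the neutrophil markers, which fill marrow, the mean was below the pool in every animal of both days (-2.10 ± 0.86 on day 5 and -2.51 ± 0.70 on day 2). In RNA from a whole organ, fewer cells of a type and less RNA per cell cannot be told apart.

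Of the 9022 probes, 405 differed between day 5 and day 2 at a Benjamini-Hochberg adjusted p below 0.05 in limma (4.49%). On day 5, 294 of them were higher (3.26%) and 111 lower (1.23%). An unadjusted limma p below 0.05 was found for 1573 of the 9022 probes, the background for the unadjusted counts between days. The values of all day 5 animals lay above those of all day 2 animals for 427 probes (4.73%) and below them for 245 (2.72%). At least 2-fold differences were found for 124 of the higher and 23 of the lower probes. The higher probes made up 72.6% of the calls. This share was 86.8% when every column was scaled to the same median absolute deviation and 78.6% after quantile normalization, with fewer calls in both (144 and 84). Without day 2 animal 5 the lower probes numbered 64. None of the falls in the macrophage, interferon, MHC class I and B cell lists, and neither of the neutrophil rises, passed under those 2 scalings. The median difference over all probes was 0.01. Counted with 1 probe per gene, 222 of 6428 genes rose (3.45%) and 79 fell (1.23%), and their median difference was 0.01. These shares are the background for each gene list that follows. The lists were chosen with earlier results of these data known, so their shares are descriptive.

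**Figure D1:**
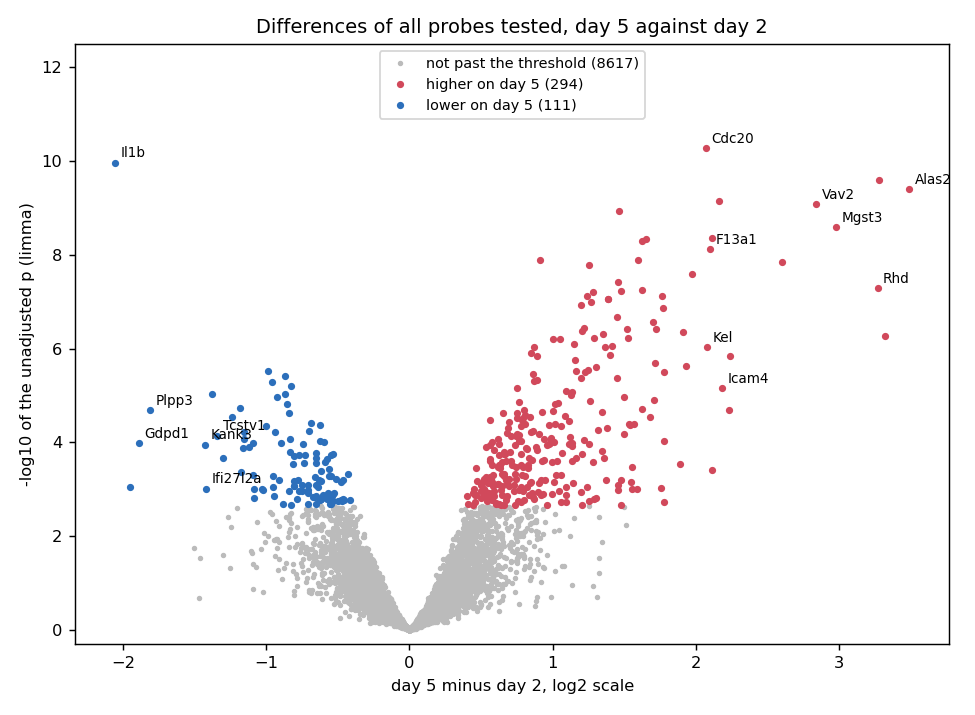
Each point is 1 of the 9022 probes tested, placed by its difference in log2 ratio (day 5 minus day 2, x axis) and by -log10 of its unadjusted limma p (y axis). The 294 probes higher on day 5 reach larger differences, up to 3.49, than the 111 lower ones, down to -2.06.

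Promoter sequences are shown first for 4 red cell genes and 3 division genes that lead the results, because their genes are described first below and they hold the short words counted here. The windows cover 110 bases before to 20 bases after the RefSeq start in build GRCm38.p6, are written 5′ to 3′ on the gene's strand, and come from RefSeq. In the first 4, capitals mark AGATAA or TGATAA on either strand, the word read by GATA factors. Alas2 is at chrX:150547307-150547436 (plus strand), Rhd at chr4:134864426-134864555 (plus), Kel at chr6:41704306-41704435 (minus) and Icam4 at chr9:21029322-21029451 (plus).
Alas2: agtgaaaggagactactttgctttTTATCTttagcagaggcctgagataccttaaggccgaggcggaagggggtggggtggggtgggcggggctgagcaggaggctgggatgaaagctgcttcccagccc
Rhd: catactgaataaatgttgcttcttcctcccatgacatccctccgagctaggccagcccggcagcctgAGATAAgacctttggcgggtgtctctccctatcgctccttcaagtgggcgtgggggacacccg
Kel: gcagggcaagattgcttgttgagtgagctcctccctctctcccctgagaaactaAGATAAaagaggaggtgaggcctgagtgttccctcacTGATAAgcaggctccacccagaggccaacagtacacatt
Icam4: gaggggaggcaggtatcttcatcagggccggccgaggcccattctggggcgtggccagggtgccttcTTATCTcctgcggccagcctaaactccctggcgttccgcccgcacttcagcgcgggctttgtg

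In the next 3, capitals mark TTTGAA or TTCGAA, known as the cell cycle homology region, and CCAAT, the word bound by NF-Y, both on either strand. Cdc20 is at chr4:118437324-118437453 (minus), Cdk1 at chr10:69352893-69353022 (minus) and Prc1 at chr7:80294341-80294470 (plus).
Cdc20: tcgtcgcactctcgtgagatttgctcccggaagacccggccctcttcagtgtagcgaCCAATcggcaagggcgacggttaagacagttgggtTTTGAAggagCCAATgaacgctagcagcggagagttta
Cdk1: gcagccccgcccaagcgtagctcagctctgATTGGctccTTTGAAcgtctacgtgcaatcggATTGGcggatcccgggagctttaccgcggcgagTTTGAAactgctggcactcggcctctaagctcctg
Prc1: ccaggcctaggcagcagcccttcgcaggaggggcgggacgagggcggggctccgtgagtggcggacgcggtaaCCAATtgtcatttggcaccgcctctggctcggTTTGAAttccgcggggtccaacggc

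The counts below were made over 300 bases, 250 before to 50 after the start, with 1 window per gene. Among the 15 red cell list genes that rose, 11 had a window and 5 of these held AGATAA or TGATAA (Alas2, Rhd, Kel, Icam4 and Btnl10). The word was found in 12.7% of the 5155 tested genes with a window and in 18.95% of all 27025 windows. In Alas2 it lay 86 bases before the start, and in Rhd and Icam4 43 bases before it. Among the 12 mitosis genes that rose, 11 had a window, and 8 held both TTTGAA or TTCGAA and CCAAT, against 6.56% of tested genes and 7.70% of all windows. None of the 11 mitosis windows held AGATAA or TGATAA, and none of the 11 red cell windows held TTTGAA or TTCGAA. Sgo1 and Bub1b each hold TTCGAA, which reads the same on both strands, and in Cdca8 the words TTTGAA and CCAAT overlap. Over all genes higher on day 5 the shares were closer to those of the tested genes: of 187 with a window, 14.4% held AGATAA or TGATAA, and 12.8% held both TTTGAA or TTCGAA and CCAAT. The counts describe letters in these windows and say nothing of what is bound there.

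Red cell genes were among the largest rises. Alas2, which starts heme synthesis in maturing red cells, was 11.3-fold higher on day 5. Of the red cell membrane and blood group genes, 10 of the 18 on the array had enough values, 4 of them rose and none fell, with a median difference of 0.91 against 0.01 over all genes. The list of red cell regulators and globins also holds enzymes and other proteins. Of its genes on the array, 17 of 24 were tested, 8 rose and none fell, with a median of 0.71. Those that rose were Mgst3, Cited4, Gpx1, Btnl10, Zfpm1, Ctse, Prdx2 and Car2, none of them a globin. The heme and iron list moved less as a whole, since 3 of 21 tested genes rose, none fell and its median was 0.01. The 2 globin genes tested did not pass, with differences of 0.00 for Hba-a1 and -0.04 for Hba-x (adjusted p = 0.997 and 0.913).

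Alas2 had log2 ratios of 0.02, -1.47, -0.56, -1.10 and -0.68 in the 5 day 5 animals, against -4.41, -3.78, -4.67, -3.42 and -4.98 in the 5 day 2 animals. The groups did not overlap. The difference was 3.49 ± 0.32 (SE, limma adjusted p = 8.86e-07), and Alas2 averaged -0.31 ± 0.19 in untreated animals (SD, n = 5). The difference between day 5 and untreated animals for Alas2 was -0.45 and did not pass (adjusted p = 0.921).

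Rhd, which carries the Rh blood group antigen, had 0.03, -1.10, -0.46, -1.44 and -0.57 on day 5, against -4.09, -3.63, -4.58, -3.09 and -4.50 on day 2. Its highest day 2 value lay well under its lowest day 5 value. The difference was 3.27 ± 0.39 (adjusted p = 2.42e-05). A second Rhd probe rose less, by 1.29 (adjusted p = 0.0403), with values overlapping between days and only 4 animals measured on day 2.

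Kel, a membrane peptidase that bears the Kell antigen, had -0.26, -1.37, -0.44, -1.18 and -0.34 on day 5, against -2.41, -2.52, -3.61, -2.07 and -3.37 on day 2. It rose by 2.08 ± 0.30 (adjusted p = 0.000178). Icam4, an adhesion molecule of red cells that binds integrins, had 0.32, -0.02, -0.11, -0.32 and -0.04 on day 5, against -2.34, -2.13, -2.82, -0.63 and -3.18 on day 2. Both genes were separate between days, although day 2 animal 4 came closest for Icam4. Icam4 rose by 2.19 ± 0.37 (adjusted p = 0.000912). Ank1, the ankyrin that ties the membrane to the spectrin skeleton, rose by 1.56 ± 0.36 (adjusted p = 0.014).

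Among enzymes and regulators, Mgst3, a glutathione-dependent peroxidase of the endoplasmic reticulum, had 0.00, -0.62, -0.31, -0.89 and -0.59 on day 5, against -3.47, -3.16, -4.10, -2.74 and -3.84 on day 2. The 7.89-fold rise (2.98 ± 0.30, adjusted p = 2.89e-06) was the third largest among the named genes. Cited4, a co-activator partner of CBP and p300, rose by 1.09 ± 0.16 (adjusted p = 0.00104), with 4 animals measured on day 5 and 3 on day 2. Gpx1 and Prdx2, which remove peroxides in red cells, rose by 1.12 and 1.56 (adjusted p = 0.00638 and 0.0298). Zfpm1, the FOG1 partner of GATA1, rose by 1.46 (adjusted p = 0.026), Btnl10, a butyrophilin-like protein, by 1.48 (adjusted p = 0.0226) and Ctse, an aspartic protease found in red cells and stomach, by 1.24 (adjusted p = 0.0274). Car2, a carbonic anhydrase, rose by 1.78 on one probe (adjusted p = 0.044) but differed by 0.35 on another (adjusted p = 0.559).

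In the heme pathway, Tmem14c, which carries a heme precursor across the mitochondrial membrane, rose by 0.74 ± 0.15 (adjusted p = 0.00505) with no overlap between days. Fech, the last enzyme of the pathway, rose by 1.26 ± 0.35 (adjusted p = 0.0426). Ppox, the enzyme just before Fech, differed by 1.02 (adjusted p = 0.0621). The calls of Btnl10, Zfpm1, Ctse, Prdx2, Fech and Car2 were lost in 5 or more of the 19 fits that left out 1 animal, with adjusted p up to 0.131. The regulator list gave 2 calls without day 2 animal 5, 3 without day 5 animal 1 or 5, and 4 without day 2 animal 3 or day 5 animal 3. The membrane list gave 4 or 5 calls in each of the fits that left out 1 animal. Under equal deviation and under quantile normalization, 3 and 2 genes of the membrane list and 2 and 2 of the regulator list passed.

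**Figure D2:**
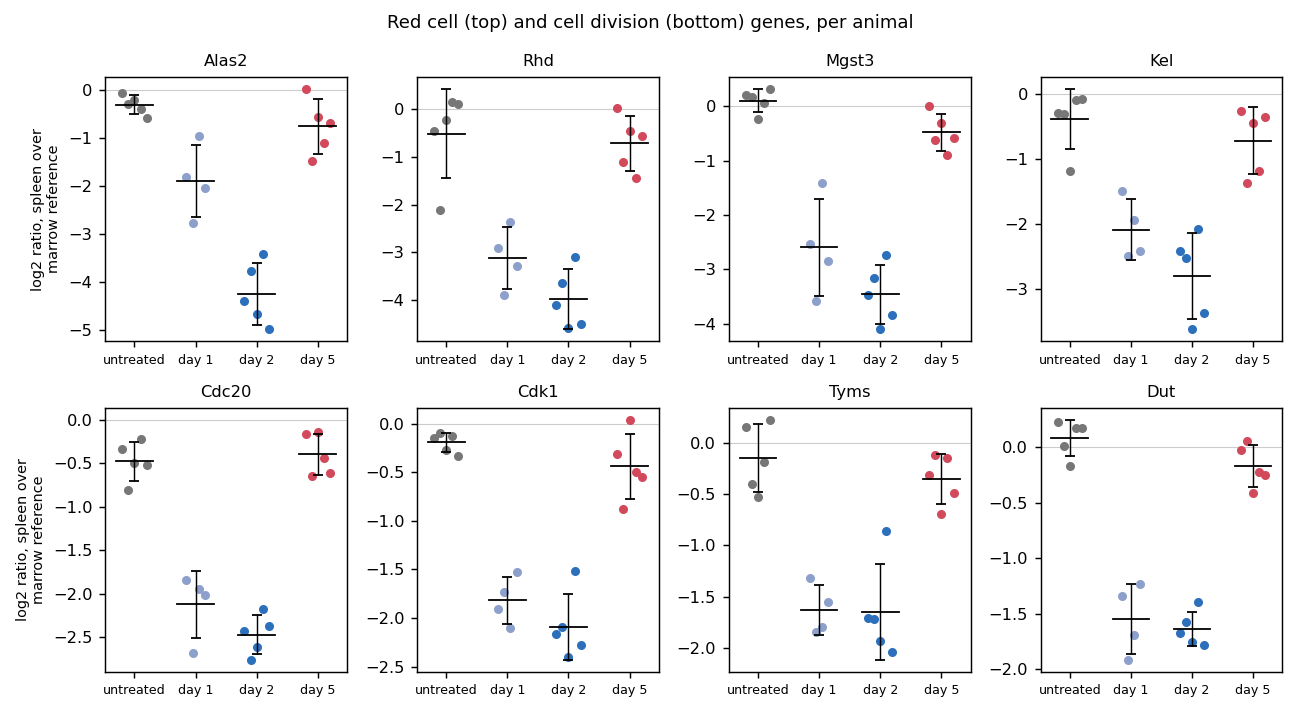
Log2 ratios of spleen over the marrow pool (y axis) for 4 red cell genes (top) and 4 division genes (bottom), 1 point per animal, by group in time order (x axis). Lines are means and bars are SD. On day 5 every point of Alas2, Rhd, Mgst3, Kel, Cdc20, Cdk1, Tyms and Dut lies above every day 2 point.

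Genes of mitosis formed the other large group that rose. Of 43 mitosis and spindle genes on the array, 25 had enough values, 12 rose and none fell (48.0%, against 3.45% of all genes), and the median difference was 0.84. DNA replication genes rose in 5 of 24 and fell in none (median 0.45). Genes of deoxynucleotide supply rose in 2 of 14 (median 0.30) and of chromatin in dividing cells in 5 of 15 (median 0.39), and none fell in either list.

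Cdc20, which activates the ligase that starts chromosome separation, had -0.16, -0.64, -0.13, -0.44 and -0.61 on day 5, against -2.43, -2.76, -2.61, -2.18 and -2.37 on day 2. The groups were separate, and Cdc20 had the smallest p of the named genes. It rose by 2.07 ± 0.17 (adjusted p = 4.81e-07), and its untreated mean was -0.47 ± 0.22 (SD, n = 5). Cdk1, the cyclin-dependent kinase that sends cells into mitosis, had -0.32, -0.88, 0.04, -0.49 and -0.55 on day 5, against -2.16, -2.09, -2.40, -1.52 and -2.27 on day 2. It rose by 1.65 ± 0.17 (adjusted p = 4.16e-06). Day 2 animal 4 was the least low of its group for both genes.

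The other mitosis genes that rose have roles throughout division. Cks2, a small partner of Cdk1, rose by 1.48, and Sgo1, which guards the cohesion of centromeres, by 1.77 (adjusted p = 2.55e-05 and 2.88e-05). Prc1 and Nusap1, which bundle spindle microtubules, rose by 1.45 and 1.50 (adjusted p = 6.36e-05 and 0.00127). Nuf2, a kinetochore subunit that holds microtubules, rose by 1.13 (adjusted p = 0.00106), and Cdca8, of the complex that carries Aurora B kinase, by 1.25 (adjusted p = 0.00632). Bub1b of the spindle checkpoint, Hmmr, Tpx2 and Ect2, which starts cytokinesis, rose by 0.85 to 1.37 (adjusted p between 0.0227 and 0.0356). Those 4 calls were lost without day 2 animal 3 or 5 or without day 5 animal 1 or 5. Without day 2 animal 5, or without day 5 animal 1 or 5, 8 of the mitosis genes passed. Under equal deviation 5 passed and under quantile normalization 4.

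In replication, Pcna, the sliding clamp of DNA polymerase, had -0.04, -0.22, -0.64, -0.35 and -0.29 on day 5, against -1.47, -1.41, -1.54, -1.33 and -1.45 on day 2. The groups were separate, and Pcna rose by 1.13 ± 0.24 (adjusted p = 0.00618). Mcm6 of the replicative helicase, Cdc6, which loads it, Orc5 of the origin complex and Rpa3, which binds single strands, rose by 0.50 to 1.09 (adjusted p between 0.0236 and 0.0441). Without day 2 animal 5 or without day 5 animal 1, Pcna was the only call left in the list (adjusted p = 0.0156 and 0.0210). The list gave 2 calls without day 2 animal 3 and 3 without day 5 animal 3 or 5. No gene of the list passed under equal deviation or quantile normalization.

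Dut, which removes dUTP so that uracil is not built into DNA, had -0.03, 0.06, -0.41, -0.22 and -0.25 on day 5, against -1.68, -1.58, -1.75, -1.40 and -1.78 on day 2. The rise was 1.47 ± 0.14 (adjusted p = 1.53e-06). Tyms, which makes the thymidine nucleotide, had -0.31, -0.12, -0.69, -0.14 and -0.48 on day 5, against -1.71, -1.72, -1.93, -0.86 and -2.05 on day 2, and rose by 1.30 ± 0.20 (adjusted p = 0.000406). Both genes were separate between days. Cad and Shmt2 of the same list differed by 0.87 and 0.44 and did not pass (adjusted p = 0.161 and 0.207).

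Of the chromatin genes, Hmgb3 (a DNA-bending protein), Lmnb1 (lamin of the nuclear envelope) and H2az1 (a histone H2A variant) rose by 1.46, 1.39 and 1.00 (adjusted p = 1.93e-05, 3.07e-05 and 0.000136). Asf1b, a histone chaperone, and Dek, a chromatin protein, rose by 0.99 and 1.01 (adjusted p = 0.00573 and 0.0236). Dek was lost without day 2 animal 3 or 5 or day 5 animal 1 or 5. For Hmgb3, Lmnb1 and H2az1 all 5 day 5 animals lay above all 5 day 2 animals. In DNA repair, 2 of 18 tested genes rose (Brca1 by 1.09, adjusted p = 0.00261, and Ube2t by 0.60, adjusted p = 0.0471) and none fell. Ube2t was lost in 14 of the 19 fits without 1 animal, among them those without day 2 animal 1, 3 or 5 (adjusted p up to 0.125).

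Of the 13 tested targets of p53, the factor that responds to DNA damage, 1 passed. This was Tnfrsf10b, a death receptor, which rose by 0.70 (adjusted p = 0.0224), a call lost without day 2 animal 2 or 5 or day 5 animal 1 or 2. Cdkn1a, the p53 target that halts the cell cycle, had a mean of 0.34 ± 0.16 on day 5 and 0.62 ± 0.49 on day 2 (SD, n = 5 each), a difference of -0.29 that did not pass (adjusted p = 0.574). The median over the p53 list was -0.09. Against untreated spleen, 6 of the 13 had an unadjusted limma p below 0.05 on day 5, beside 442 of 8477 probes. None passed, and the list median there was -0.003. Cdkn1a was 0.51 above untreated (adjusted p = 0.921).

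The animals of one day differed among themselves in the mitosis and red cell membrane medians. In the median over the 25 mitosis genes, the day 5 animals had -0.18, -0.76, -0.31, -0.50 and -0.31, against -1.63, -1.53, -2.20, -0.99 and -1.96 on day 2. In the median over the 10 red cell membrane genes they had 0.06, -0.51, -0.11, -0.55 and -0.16, against -1.44, -1.05, -1.21, -0.65 and -1.60 on day 2. Day 5 animals 2 and 4 were the 2 lowest of their group in both, and day 2 animal 4 the highest of its group in both. Every day 5 median of these 2 lists lay above every day 2 median. The order of the day 5 animals was not the same in other lists, since animal 4 was second highest for DNA replication (0.01) and chromatin (-0.11). In the same 2 day 5 animals the medians of the cytosolic ribosome genes were the highest of the day, at 0.68 and 0.49, against -0.15, -0.06 and 0.16 in the other day 5 animals. The part of this in the red cell and mitosis values was not tested.

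Il1b, the gene of the inflammatory cytokine interleukin 1 beta, fell most. It had -0.67, -0.72, -0.53, -0.68 and -0.58 on day 5, against 1.32, 1.86, 1.42, 1.28 and 1.24 on day 2. All day 5 animals lay within a narrow range below the pool and all day 2 animals above it. The difference was -2.06 ± 0.17 (adjusted p = 4.92e-07). In untreated animals Il1b averaged -0.19 ± 0.30 (SD, n = 5), and the difference between day 5 and untreated animals was -0.45 (adjusted p = 0.921). A second Il1b probe differed by -0.12 between days (adjusted p = 0.735), so the fall rests on 1 probe.

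Of 31 tested cytokine and inflammation genes, 2 fell and none rose (median -0.08). The other was Id2, an inhibitor of basic helix-loop-helix factors, with 0.06, 0.92, 0.07, 0.94 and 0.01 on day 5, against 1.29, 1.09, 1.77, 1.42 and 1.91 on day 2. It fell by 1.09 ± 0.27 (adjusted p = 0.019), and the call was lost without day 2 animal 5 or without day 5 animal 1, 3 or 5. Ahr, a ligand-activated factor, and Stat3, which carries cytokine signals, differed by -0.65 and -0.72 (adjusted p = 0.0564 and 0.0603). Birc3, an inhibitor of cell death, fell by 0.71 (adjusted p = 0.026), a call lost without day 2 animal 3 or 5 or day 5 animal 4 or 5.

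Macrophage genes had the lowest median of all lists, at -0.54, with 2 of 11 tested genes past the threshold and lower on day 5 (18.2%, against 1.23% of all genes). Siglec1, the sialic acid receptor of metallophilic spleen macrophages, had 0.70, 1.47, 1.34, 1.06 and 1.00 on day 5, against 2.37, 1.94, 2.34, 1.67 and 2.19 on day 2. The groups were separate by a narrow gap, and Siglec1 fell by 0.99 ± 0.16 (adjusted p = 0.000469). Abca1, which exports cholesterol from loaded macrophages, fell by 0.71 (adjusted p = 0.0471), and this call was lost in 13 of the 19 fits without 1 animal. The lysosomal protease Ctsc and Cd5l, a secreted macrophage protein, had differences of -0.80 and -0.54 that did not pass (adjusted p = 0.166 and 0.127).

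Of 23 tested genes induced by interferon, 3 fell and 1 rose, with a median of -0.29. Mx2, an antiviral GTPase, had 0.24, 0.32, 0.51, 0.19 and 0.22 on day 5, against 1.15, 1.04, 1.00, 0.69 and 1.05 on day 2, and fell by 0.69 ± 0.13 (adjusted p = 0.00336). Rtp4, a receptor chaperone, fell by 0.65 (adjusted p = 0.0123). Ifi27l2a had -1.55, 1.44, 0.13, 0.54 and -0.04 on day 5, against 1.76, 1.20, 1.36, 1.21 and 2.07 on day 2. It fell by 1.42 ± 0.37 (adjusted p = 0.0296), with wide values on day 5 that overlap day 2, and the call was lost without day 2 animal 1 or 5 or without day 5 animal 1, 3 or 5. Ube2l6, the enzyme that passes the ubiquitin-like protein ISG15 to its targets, went the other way and rose by 1.71 ± 0.30 (adjusted p = 0.00142). It had -0.08, -1.37, -0.34, -1.42 and -0.38 on day 5, against -2.52, -2.59, -2.75, -1.36 and -2.93 on day 2. Day 2 animal 4 lay within the day 5 range.

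MHC class I presentation genes, which show peptides to killer T cells, fell in 3 of 13 tested and rose in none (23.1%, median -0.38). H2-T23, the mouse Qa-1 molecule, had 0.16, 0.02, -0.02, 0.15 and 0.16 on day 5, against 0.87, 0.79, 0.16, 0.90 and 1.08 on day 2. The highest day 5 value and the lowest day 2 value of H2-T23 nearly touch. It fell by 0.66 (adjusted p = 0.0203), H2-Q1 by 0.81 (adjusted p = 0.023) and Pdia3, which helps to load peptides, by 0.42 (adjusted p = 0.0419). Without day 2 animal 5 none of the 3 passed. The class I genes are near-identical to each other, and a probe may read more than one of them. Tap1 of the peptide transporter differed by -0.69 (adjusted p = 0.0951). None of the 5 tested MHC class II genes passed in limma, adjusted or at an unadjusted p below 0.05, with H2-Aa at 1.44 ± 0.55 on day 5 and 1.48 ± 0.50 on day 2 (SD, n = 5 each).

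**Figure D3:**
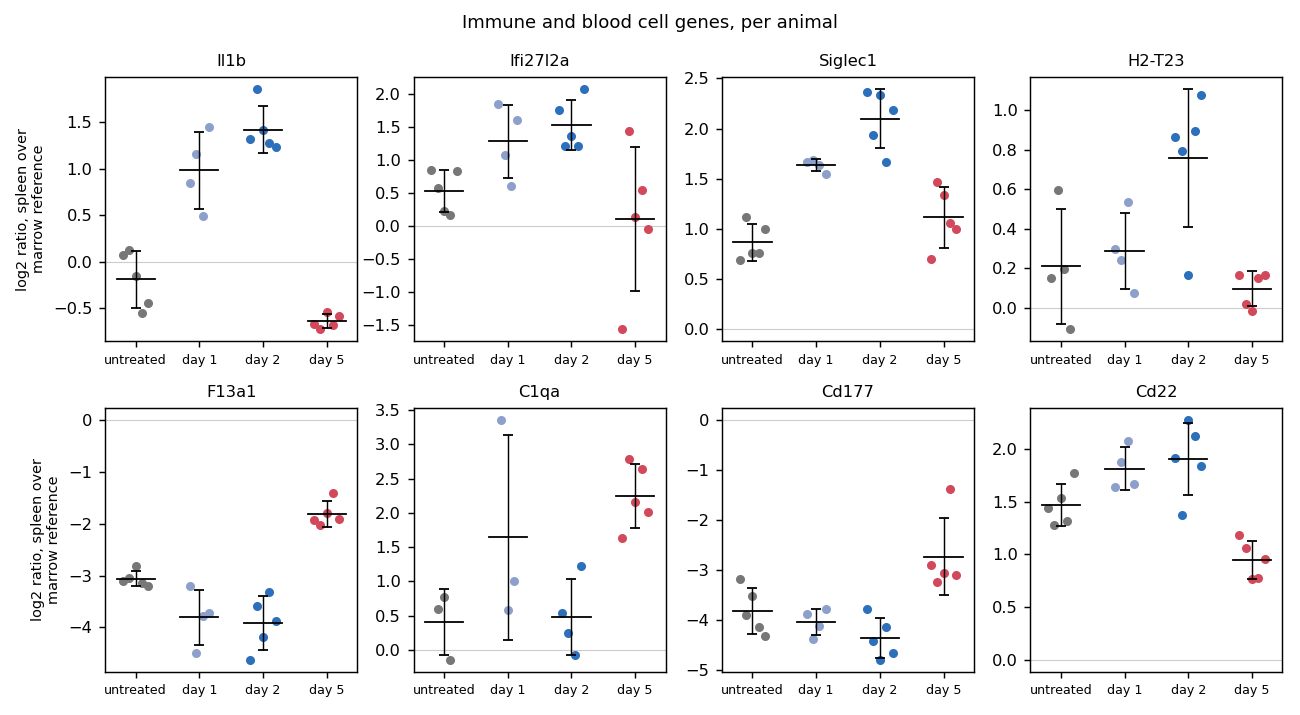
Log2 ratios of spleen over the marrow pool (y axis) for 8 immune and blood cell genes, 1 point per animal, by group in time order (x axis), with means and SD. Il1b, Siglec1 and Cd22 are lower on day 5 than on day 2, and F13a1, C1qa and Cd177 are higher.

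B cell genes fell in 2 of 20 tested and rose in none (median -0.16, against 1.23% of all genes that fell). Cd22, an inhibitory receptor of B cells, had 1.19, 1.06, 0.77, 0.78 and 0.95 on day 5, against 1.91, 1.38, 2.28, 2.12 and 1.84 on day 2. The days were separate, and Cd22 fell by 0.96 ± 0.16 (adjusted p = 0.000681). The untreated mean of Cd22 was 1.47. Ms4a1, which encodes the CD20 antigen, had 0.83, 1.32, 1.35, 1.00 and 1.43 on day 5, against 1.66, 2.05, 1.69, 1.86 and 1.94 on day 2, and fell by 0.66 (adjusted p = 0.0359). Without 1 of 5 animals, such as day 2 animal 5 or day 5 animal 1, Ms4a1 was lost (adjusted p up to 0.1). Blnk, an adaptor of the B cell receptor, and Fcmr, the IgM receptor, differed by -0.45 and -0.93 and did not pass (adjusted p = 0.0736 and 0.128).

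None of the 17 tested T cell genes, 16 NK and cytotoxic genes, 13 dendritic cell genes, 14 plasma cell genes or 8 B cell precursor genes passed in limma. At an unadjusted p below 0.05 these lists held 4, 4, 2, 2 and 1 genes, beside 1573 of all 9022 probes. Of 13 regulatory T cell genes, 1 passed. Izumo1r, the folate receptor 4 of those cells, had -0.03, -0.56, -0.34, -0.96 and -0.54 on day 5, against -1.98, -1.62, -1.82, -2.05 and -1.91 on day 2, and rose by 1.39 ± 0.17 (adjusted p = 3.07e-05). Of the defining genes of these cells, Foxp3 differed by 0.27 (adjusted p = 0.553, with 3 day 5 and 4 day 2 animals), Ctla4 by -0.31 (adjusted p = 0.499) and Tnfrsf18 by -0.54 (adjusted p = 0.175).

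**Figure D4:**
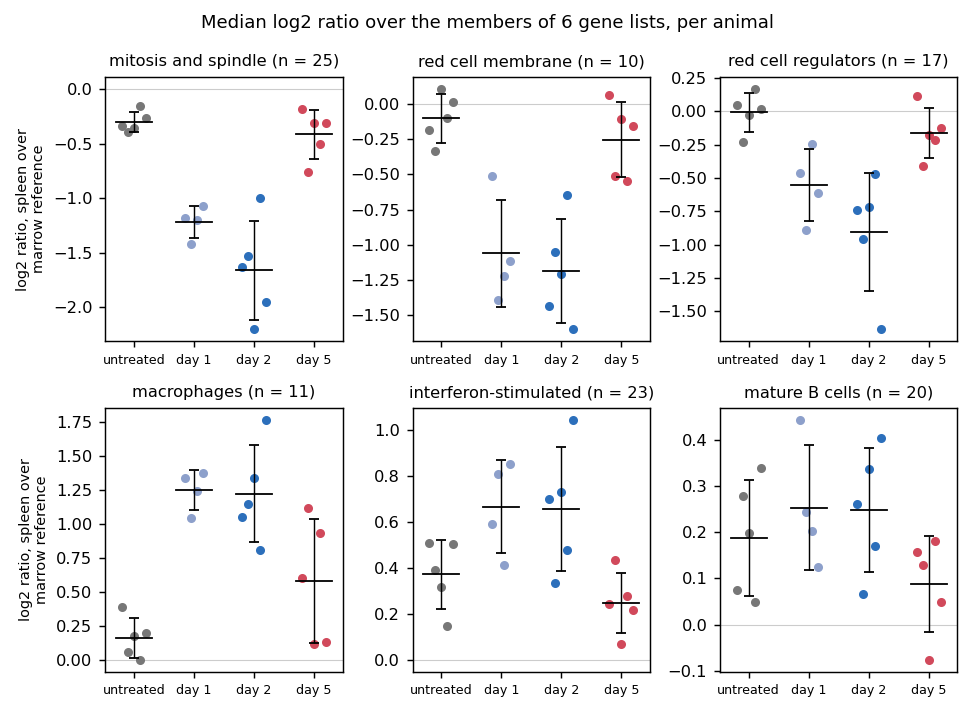
Median log2 ratio over the tested members of 6 gene lists in each animal (y axis), by group in time order (x axis), with group means and SD. The mitosis and red cell medians of the day 5 animals all lie above those of the day 2 animals, and the macrophage, interferon and B cell medians of day 5 and day 2 overlap.

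Among myeloid cells, the neutrophil list rose in 2 of 18 tested and fell in none (11.1%, median 0.29). Cd177, a surface protein of neutrophils, had -2.90, -3.24, -3.06, -1.38 and -3.11 on day 5, against -3.79, -4.42, -4.80, -4.15 and -4.65 on day 2. It rose by 1.62 ± 0.29 (adjusted p = 0.00205), and day 5 animal 4 stood far above the others. Ltf, a secondary granule protein, rose by 1.48 (adjusted p = 0.0488), a call lost in 13 of the 19 fits without 1 animal, among them those without day 5 animal 4 or day 2 animal 5. Hp, haptoglobin, differed by 1.50 (adjusted p = 0.0522). None of the 8 tested early granule genes passed in limma, with 1 at an unadjusted p below 0.05.

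F13a1, a clotting factor subunit made by monocytes and megakaryocytes, was the one monocyte gene of 15 that passed. It had -1.94, -2.02, -1.79, -1.40 and -1.91 on day 5, against -4.62, -3.58, -4.18, -3.31 and -3.87 on day 2, and rose by 2.10 ± 0.22 (adjusted p = 5.65e-06). The call was lost under quantile normalization and with a variance trend, but kept under equal deviation. Over the alternatives its difference was as low as 0.67. The 5 untreated animals had -3.10, -3.05, -2.82, -3.14 and -3.20, so that every day 5 animal lay above every untreated one as well. C1qa, a chain of the complement protein C1q, which spleen macrophages make, had 1.63, 2.79, 2.16, 2.64 and 2.01 on day 5, against 0.55, 0.24, -0.07 and 1.23 in the 4 day 2 animals with a value. It rose by 1.76 ± 0.44 (adjusted p = 0.0293), while the macrophage list as a whole had a lower median on day 5. The call was lost without day 2 animal 1, 3 or 4 or without day 5 animal 2, 3 or 4. Tpsb2, a mast cell tryptase, rose by 0.89 (adjusted p = 0.000255), and Ccr3, the eotaxin receptor of eosinophils, fell by 1.09 (adjusted p = 0.0395). The call of Ccr3 was lost without day 2 animal 1, 3 or 5 or day 5 animal 2, 3 or 5 (adjusted p up to 0.107).

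**Figure D5:**
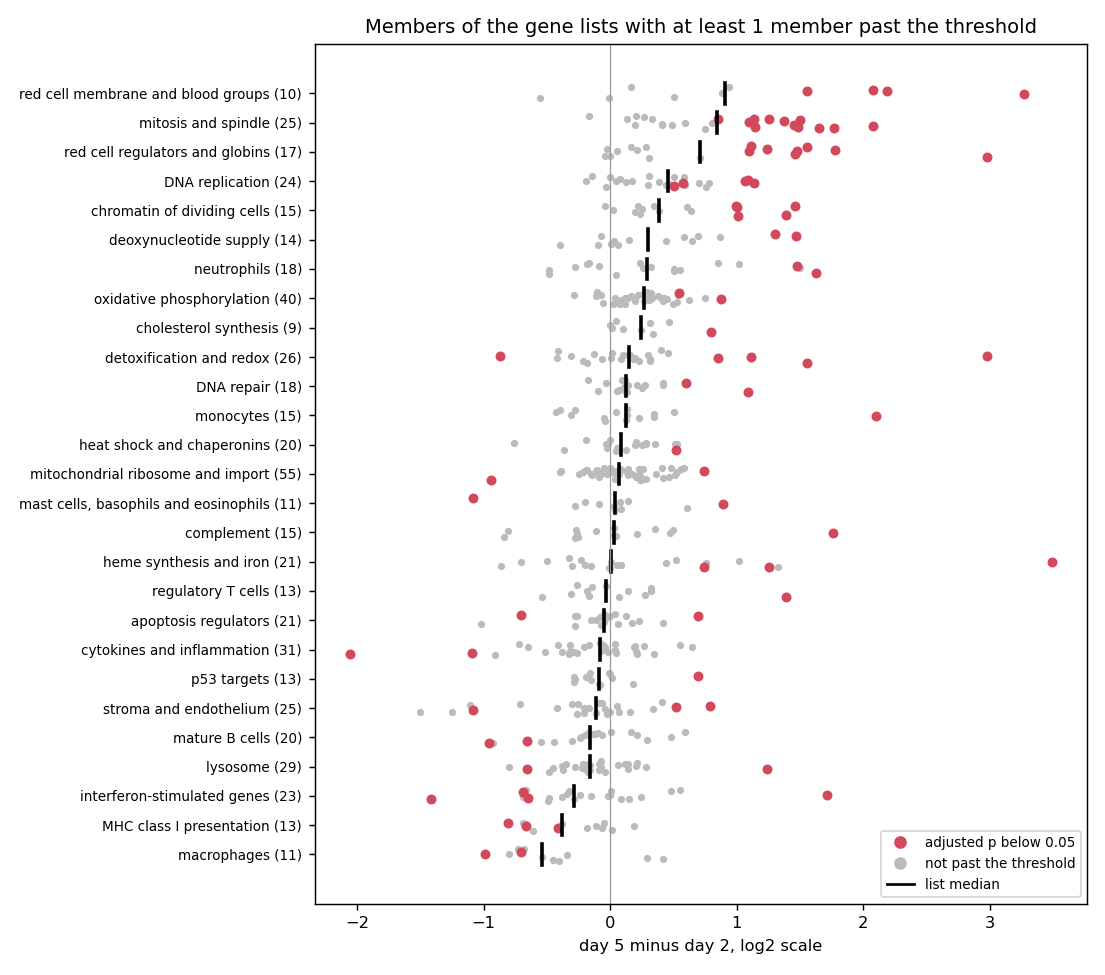
Differences between day 5 and day 2 (x axis, log2 scale) for the tested members of the 27 gene lists with at least 1 call (y axis, number tested in brackets), ordered by list median. Red points passed an adjusted p of 0.05, grey points did not, and black bars are medians. The red cell membrane, mitosis and red cell regulator lists lie highest, and the macrophage list lowest.

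Housekeeping lists held few calls. None of 35 cytosolic ribosome genes, 21 proteasome genes or 11 glycolysis genes passed in limma, with 1, 2 and 3 at an unadjusted p below 0.05. In oxidative phosphorylation the median was 0.27, against 0.01 over all genes, and 35 of 40 genes had a difference above 0. Of the 40, 10 had an unadjusted limma p below 0.05, beside 1573 of all 9022 probes. Past the threshold 2 rose (5.0%, against 3.45% of all genes), Uqcr11, of complex III, by 0.87 and Cox4i1, of complex IV, by 0.54. Both were lost in 5 or more of the fits without 1 animal, and neither passed under equal deviation or quantile normalization. In mitochondrial ribosome and import 1 of 55 rose (Mrps11, by 0.74) and 1 fell (Mrpl21, by 0.94). Mrpl21 was lost without day 5 animal 2, 4 or 5. Among 26 detoxification and redox genes 4 rose (15.4%) and 1 fell, and 2 rose without day 2 animal 5 or without day 5 animal 3 or 5. The gene that fell was Prdx1, a peroxiredoxin, by 0.87 ± 0.14 (adjusted p = 0.000557), while Mgst3, Gpx1, Prdx2 and Glrx, a glutaredoxin, rose. In stroma and endothelium, the collagen gene Col5a1 and the TGF-beta co-receptor Eng rose by 0.79 and 0.52 and the collagen gene Col14a1 fell by 1.08 (adjusted p = 0.019, 0.0336 and 0.0298). Eng and Col14a1 were each lost in 6 of the 19 fits without 1 animal, and Col5a1 without day 5 animal 1. None of 13 stem and progenitor genes and none of 12 megakaryocyte and platelet genes passed between days, with 0 and 1 at an unadjusted p below 0.05.

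Some of the leading genes have no place in these lists. Vav2, a guanine nucleotide exchange factor, had -0.59, -0.87, -1.90, -1.39 and -0.54 on day 5, against -3.90, -3.57, -4.29, -3.58 and -4.17 on day 2, and rose by 2.84 ± 0.27 (adjusted p = 1.23e-06). Fut1, a fucosyltransferase that makes the H antigen, rose by 1.98 and Cenpp, a centromere protein, by 1.78 (adjusted p = 1.35e-05 and 0.00594). Klk1b5, Daw1, Lce1d, Tuba3a and Syt9 rose by 1.89 to 2.24. Their products are a kallikrein protease, a dynein assembly factor, a skin envelope protein, a tubulin and a synaptotagmin.

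Among the leading falls, Gdpd1, a phospholipid-cleaving enzyme, had 1.23, -0.04, 0.35, -0.05 and 0.14 on day 5, against 2.11, 2.25, 2.25, 1.70 and 2.78 on day 2, and fell by 1.89 ± 0.40 (adjusted p = 0.00621). Plpp3, a lipid phosphate phosphatase, fell by 1.81 (adjusted p = 0.00214) and Kank3, an ankyrin repeat protein, by 1.43 (adjusted p = 0.00638). Cxcr6, a chemokine receptor of T and NK cells, fell by 1.16 (adjusted p = 0.00442) with no overlap between days. Tcstv1, Tspan3, Gpr137b, Ppcs, Col14a1, Aox1 and Dram2 fell by 1.03 to 1.34. Of these, Col14a1, Aox1 and Dram2 were lost in 5 or 6 of the 19 fits without 1 animal and Gpr137b in 1, without day 2 animal 3. The gene names are those of the array's cDNA clones in the platform annotation, and 100 of the 405 called probes had no single gene there.

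Day 5 was also set against untreated spleen, in a comparison that shares the day 5 animals with the one above. Of 8477 probes with enough values, 6 passed (0.0708%, with 442 at an unadjusted p below 0.05), 4 higher (0.0472%) and 2 lower (0.0236%) on day 5. The 2 lower probes had no gene name. F13a1 was higher by 1.25 (adjusted p = 0.0397) and was 2.10 above day 2. App, the amyloid precursor protein, had 0.58, 0.70, 0.57, 0.83 and 0.48 on day 5, against -0.20, -0.04, 0.14, -0.01 and -0.26 in untreated animals. The difference was 0.71 (adjusted p = 0.0367), and App differed by -0.62 from day 2 (adjusted p = 0.00341). A second App probe differed by 0.36 from untreated (adjusted p = 0.921).

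Itga2b, the platelet integrin CD41, was 1.11 above untreated (adjusted p = 0.0397) and differed by 0.25 from day 2 (adjusted p = 0.599). Thbd, thrombomodulin, was 0.66 above untreated (adjusted p = 0.044) and differed by -0.09 from day 2 (adjusted p = 0.773). Neither difference from day 2 passed, which does not show that the levels were equal. Itga2b averaged -0.05 in untreated animals, 0.54 on day 1, 0.80 on day 2 (4 animals) and 1.06 on day 5. Thbd averaged -0.25, 0.45, 0.51 and 0.42 in the same order. The number of calls against untreated spleen lay between 0 and 6 when 1 animal was left out. It was 0 without untreated animal 2 or 5, day 1 animal 4 or day 5 animal 4 or 5, and 1 without day 5 animal 2 or 3. It was 2 or 3 without untreated animal 1, day 1 animal 2, day 2 animal 1, 2 or 5, or day 5 animal 1. For the lists that rose, the median differences from untreated were -0.11 for mitosis, -0.04 for red cell membrane genes and -0.15 for red cell regulators, and no member passed in limma, with 3, 0 and 2 at an unadjusted p below 0.05. The megakaryocyte and platelet list had a median of 0.59 above untreated, against 0.04 between day 5 and day 2, and 7 of its 12 genes had an unadjusted p below 0.05 against untreated.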

How the data were processed

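Splenocyte RNA of DBA/2 mice was amplified with amino allyl labelling and hybridised in Cy5 to 2-colour cDNA arrays against a Cy3 marrow pool, per the labels' protocols. The authors deposited log2 ratios of spleen over pool, centred near 0 per column and bounded at 6 in size, which 7 values reach. Neither the normalization method nor the log base is given in the labels. No dyes were swapped, so a dye effect common to all arrays cancels between days.

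Here the 2 technical columns of each animal were averaged, and probes with values in at least 3 animals of both groups were kept. One limma model (version 3.58.1 in R 4.3.3) covered all 4 groups, with empirical Bayes moderation and Benjamini-Hochberg adjustment over all probes tested. The labels call the animals independently harvested. Slide and scan were not given. The p-values rest on 5 animals per group and on a spread estimated over all 19 animals, and array number limits the precision. Gene names came from the platform annotation, where 10032 of 13443 probes have 1 gene. Named genes are the 15 largest rises and falls past the threshold with day 5 animals on one side of the day 2 mean, and list members that passed or had the 4 smallest p. In the lists 1 probe stood for each gene, the one with the most values over both days, ties going to the larger SD. Leading genes used the probe with the largest difference. Where several probes of a gene are given, the one with the smallest p comes first. The genes and lists were chosen with earlier results of these data known. The scripts were checked on simulated data. Promoters are from RefSeq (GRCm38.p6).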

Additional observations from a re-analysis of the deposited data

Results flagged for a closer look

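In the named genes and 10 lists, 301 groups of 4 or 5 animals were searched for a sample standing apart by Dixon's criterion, and 19 did (6.31%, where chance gives about 5%). Day 2 animal 4 accounts for 5 of them, with log2 ratios of 0.867 for Cxcr6, -1.48 for Nuf2, 0.584 for Tspan3, -0.858 for Tyms and -1.36 for Ube2l6. Each of these values lay on the side nearer to day 5. The ratios of day 2 animal 4 had an SD over probes of 0.51, against 0.64 to 0.70 in the other day 2 animals and 0.38 to 0.52 on day 5. The part of this spread in the flags was not tested. Untreated animal 2 accounts for 4, all low, at -3.02 for Daw1, -1.29 for Nusap1, -1.74 for Pcna and -2.12 for Rhd. The 2 technical columns of untreated animal 2 correlated at only 0.65.

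On day 5, Cd177 in animal 4 (-1.38), Cited4 in animal 1 (0.128, among 4 animals) and the median of the heme and iron list in animal 5 (-0.122) stood apart. On day 2 it was H2az1 (-0.778) and Klk1b5 (-1.23) in animal 1 and Idi1 (-1.55) in animal 2. Among untreated animals it was Col14a1 in animal 4 (-0.223), Dek (-0.928) and Kel (-1.19) in animal 3, and Gpx1 in animal 5 (0.179). The technical columns of untreated animal 4 correlated at 0.58, the lowest of all animals.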

How the results depend on the processing

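None of the 93 genes that passed or led changed direction under the alternatives run, which did not cover named genes that had not passed. These genes were picked from the same data, and the stricter thresholds reuse the same fit, so a change of direction was unlikely. The 405 probes that differed between day 5 and day 2 became 84 after quantile normalization, 144 with equal median absolute deviation, 735 with all columns and animal as a random block, 186 at an adjusted p below 0.01 and 147 with a 2-fold minimum. Leaving out 1 animal gave 283 to 437. With only the day 5 and day 2 animals in the fit, 343 probes differed and 22 of the 93 genes no longer passed. Of the 93 genes, 25 passed after quantile normalization and 36 with equal deviation. The cause was not tested. Against untreated spleen, the 6 calls became 0 with equal deviation, 0 with either technical column alone, 24 with the random block, 0 with a variance trend, 1 with only the groups compared, 0 at an adjusted p below 0.01 and 1 without the 3 animals of lowest technical agreement. Leaving out 1 animal gave 0 to 6. Animals with the same replicate number showed no shared deviation by correlation. Of the same-number correlations, 0 of 5 exceeded 0.1 (-0.253 to 0.0723), and 1 of 5 day 5 animals correlated best with its own number. With 5 pairs this cannot exclude a batch shared by number. With the replicate number as a block, 358 probes differed from day 2 and 0 from untreated, and 15 of the 93 genes no longer passed. Faint probes are limited by missing values: 63.2% of all values were present.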

Other observations

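Outside the gene lists and the leading genes, 210 genes differed between day 5 and day 2, 159 higher and 51 lower on day 5. The genes below were chosen after their values were seen. Several belong to the division machinery: Depdc1a, Esco2, which acetylates cohesin, and the kinetochore genes Cenpk and Spc24 rose by 1.72, 1.60, 1.37 and 1.02 (limma adjusted p = 0.000101, 8.23e-06, 0.000178 and 0.00336). H2ax, the histone marked at DNA breaks, and Slbp, which binds histone mRNA, rose by 1.55 and 0.61 (adjusted p = 0.024 and 0.0467). Stom, a membrane protein abundant in red cells, rose by 0.99, Tspo2 by 0.96 and Isca1, a mitochondrial iron-sulfur assembly gene, by 1.22 (adjusted p = 0.0118, 0.049 and 0.00584).

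Uba7, the enzyme that activates ISG15, averaged -0.74 ± 0.39 on day 5 and -2.42 ± 0.36 on day 2 (SD, n = 5 each) and rose by 1.68 (adjusted p = 0.00266). Ube2l6, which acts after it, rose as well, while Mx2, Rtp4 and Ifi27l2a fell. Among genes that restrain inflammation, Il18bp, which binds interleukin 18, fell by 0.95, and Tnip1 and Tnip2, which bind the A20 protein, fell by 0.83 and 0.67 (adjusted p = 0.0197, 0.0484 and 0.0375). Sqstm1, an autophagy receptor, Hif1a, the oxygen-regulated factor, and the class I gene H2-Q8 fell by 0.89, 0.56 and 0.70 (adjusted p = 0.00621, 0.0148 and 0.00427).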
